A study of Mus musculus with 8 samples.

Results

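Keratins 6, 16 and 17 are the stress keratins of the epidermis, encoded in the mouse by Krt6a, Krt6b, Krt16 and Krt17. These 4 genes, chosen by name and matched to the deposited tables by Ensembl identifier, are described here among the 41388 gene identifiers measured, and all 4 passed the low-count filter. The mice were adult, wild type and of the C57Bl/6 strain: 4 had received ethanol, the vehicle, and 4 had received MC903. Also named calcipotriol, MC903 acts like vitamin D and was put on the skin at 1 nmol each day for 12 days. Whole ear was sequenced, with 1 library per mouse and 12310466 to 16837221 counts per library, so epidermis, hair follicles, dermis, cartilage, muscle and blood-borne cells all contribute. In such bulk tissue, fewer cells of a type and less RNA per cell cannot be told apart, and likewise more cells and more RNA per cell.

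Keratins are the intermediate filament proteins of epithelial cells. A filament is built from pairs of a type I keratin (Krt14, Krt16 and Krt17 among them) and a type II keratin (Krt5, Krt6a and Krt6b among them). In resting skin basal keratinocytes make mainly Krt5 with Krt14, and suprabasal keratinocytes make mainly Krt1 or Krt2 with Krt10. The stress keratins are held mostly to the hair follicle, nail and other appendages of resting skin, Krt17 more widely than the others, and they are known to appear in the epidermis between follicles after wounding and in inflammatory and hyperproliferative skin disease. Known signals that raise them include epidermal growth factor receptor ligands and inflammatory cytokines.

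The 4 genes lie in the keratin clusters of the mouse genome, and their relatedness decides how well reads of 50 bases can tell them apart. In GRCm38, the assembly also called mm10, Krt6b (ENSMUSG00000023041) spans chr15:101676023-101680287 and Krt6a (ENSMUSG00000058354) spans chr15:101689910-101694307, each with 9 exons. Krt16 (ENSMUSG00000053797) spans chr11:100246091-100248902 and Krt17 (ENSMUSG00000035557) spans chr11:100256217-100261029, each with 8 exons, and all 4 are on the minus strand. Of the 2229 windows of 50 bases in the Krt6a transcript, 972 (43.6%) were letter for letter in the Krt6b transcript, and these were 44.5% of the 2186 windows of Krt6b. Krt16 and Krt17 shared only 6 identical windows (0.396% of 1516 in Krt16). Krt16 was closer to the basal keratin Krt14, with 188 identical windows (12.4%), and Krt17 had 55 of its 1502 windows (3.66%) in Krt14. Counting every gene in the tables, 570 windows of Krt16 (37.6%) were also in another gene (Krt14, Krt17 or Gm11597), against 60 windows of Krt17 (3.99%), 49.5% for Krt6a and 50.1% for Krt6b.

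Coding windows of 50 bases show what a single read could and could not separate. Capitals mark bases that differ position by position within a pair, compared without gaps. An insertion or deletion can therefore mark a run of bases as different, as at the end of the exon 9 pair. The exon 1 window is identical in Krt6a (chr15:101694166-101694215) and Krt6b (chr15:101680141-101680190). The exon 9 window, which codes for part of the tail, is the Krt6a window farthest from its best ungapped Krt6b match, with 13 mismatches (Krt6a chr15:101690475-101690524, Krt6b chr15:101676540-101676589). Only windows inside 1 coding exon, with a best match also inside 1 coding exon, were considered for this. The type I pair is shown by the exon 1 window of Krt16 (chr11:100248722-100248771) that is farthest from its best ungapped Krt17 match (chr11:100260905-100260954), with 27 mismatches. This pair is not an alignment of counterparts, since the Krt17 window reads more like the Krt16 window in the last line. A window of Krt16 exon 1 (chr11:100248841-100248890) that is also in exon 1 of Krt14 (chr11:100207406-100207455) is shown because reads from it could come from either gene. Each is printed 5′ to 3′ along the transcript.
Krt6a and Krt6b, exon 1: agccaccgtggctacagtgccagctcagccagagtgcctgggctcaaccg
Krt6a, exon 9: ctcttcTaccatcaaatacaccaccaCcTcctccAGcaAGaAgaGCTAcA
Krt6b, exon 9: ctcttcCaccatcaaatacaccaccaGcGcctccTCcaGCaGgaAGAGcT
Krt16, exon 1: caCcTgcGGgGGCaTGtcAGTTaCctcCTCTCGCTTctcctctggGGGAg
Krt17, exon 1: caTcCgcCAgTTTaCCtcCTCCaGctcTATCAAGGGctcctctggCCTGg
Krt16 and Krt14, exon 1: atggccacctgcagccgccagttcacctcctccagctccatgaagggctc

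How reads that fit more than 1 gene were counted is not given in the sources used here, so the separate levels of Krt6a and Krt6b are uncertain, and so is the level of Krt16 wherever it is set beside Krt17 or Krt6b. Near copies of these genes drew few reads in any library. Gm5414 and Gm5478, which share windows with Krt6a and Krt6b, had at most 7.06 and 2.42 CPM, and Gm11597, a pseudogene annotated between Krt14 and Krt16 that shares windows with Krt16, had at most 1.42 CPM.

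All 4 stress keratins were higher in MC903-treated ears, by about 4.58-fold for Krt17 and by 32.2-fold to 62.0-fold for the other three. All 4 passed edgeR's quasi-likelihood test, against a background in which 41.5% of the 16105 genes tested were called and 21.3% were called higher. In all 4 the groups did not overlap, with every MC903 library above every vehicle library, as was the case for 19.8% of genes tested. The median log2 fold change of the 4 was 5.45, against -0.03 over all genes tested. Treatment was visible in every library through Cyp24a1, a vitamin D receptor target that degrades vitamin D, which rose by 7.67 ± 0.23 on the log2 scale (SE; edgeR adjusted p = 1.76e-08).

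Krt6a, a type II keratin, stood at 99.1, 109, 61.2 and 69.5 CPM in vehicle replicates 1 to 4 and at 3153, 2373, 2478 and 2922 CPM in MC903 replicates 1 to 4 (CPM, read counts scaled to a common library size with TMM factors). The vehicle libraries thus differed by less than a doubling, and each MC903 library lay far above all of them. Its log2 fold change was 5.01 ± 0.26 (SE, n = 4 per group; edgeR adjusted p = 2.71e-07), or 32.2-fold with a 95% interval of 21.7 to 47.8.

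Krt6b, the near copy of Krt6a, was at 69.3, 72.2, 23.7 and 22.1 CPM in vehicle replicates 1 to 4. Vehicle replicates 1 and 2 were close to each other and well above replicates 3 and 4. In MC903 replicates 1 to 4 Krt6b stood at 3392, 2504, 2532 and 2703 CPM. The log2 fold change was 5.89 ± 0.46 (edgeR adjusted p = 4.12e-06), or 59.5-fold with a 95% interval of 29.6 to 120 that reflects the uneven vehicle libraries. With Krt6a and Krt6b counted as 1 gene, which does not depend on how shared reads were split between them, the log2 fold change was 5.39 ± 0.33 (edgeR adjusted p = 7.98e-07).

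Krt16, a type I keratin and a partner of keratin 6, was at 50.1, 61.5, 20.7 and 22.2 CPM in vehicle replicates 1 to 4 and at 2775, 2367, 2285 and 2149 CPM in MC903 replicates 1 to 4. The 4 vehicle libraries fell into the same upper and lower pairs as for Krt6b. Krt16 had the highest fold of the 4, 5.95 ± 0.41 on the log2 scale (edgeR adjusted p = 1.94e-06), or 62.0-fold with a 95% interval of 33.5 to 115. That interval overlapped those of Krt6a and Krt6b.

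Krt17, the other type I stress keratin, had a different starting point. It was at 385, 652, 526 and 600 CPM in vehicle replicates 1 to 4, with replicate 1 lowest although that library was among the higher ones for Krt6b and Krt16. In MC903 replicates 1 to 4 it stood at 2561, 1971, 2418 and 2957 CPM. The log2 fold change was 2.20 ± 0.22 (edgeR adjusted p = 2.15e-05), or 4.58-fold with a 95% interval of 3.28 to 6.40, which lay below the intervals of the other three genes.

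Vehicle replicate 2 carried salivary gland transcripts. The summed level of 9 salivary markers was 381489 CPM there and 200 to 475 CPM in the other 7 libraries, and the simple epithelial keratin Krt18 was at 33.1 CPM there and at most 0.63 CPM elsewhere. Without that library the log2 fold changes were 5.15 for Krt6a, 6.17 for Krt6b, 6.26 for Krt16 and 2.29 for Krt17, all still called. Across the fits that each left out 1 library the values ran from 4.88 to 5.15 for Krt6a, 5.66 to 6.17 for Krt6b, 5.74 to 6.26 for Krt16 and 2.06 to 2.30 for Krt17.

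**Figure D1:**
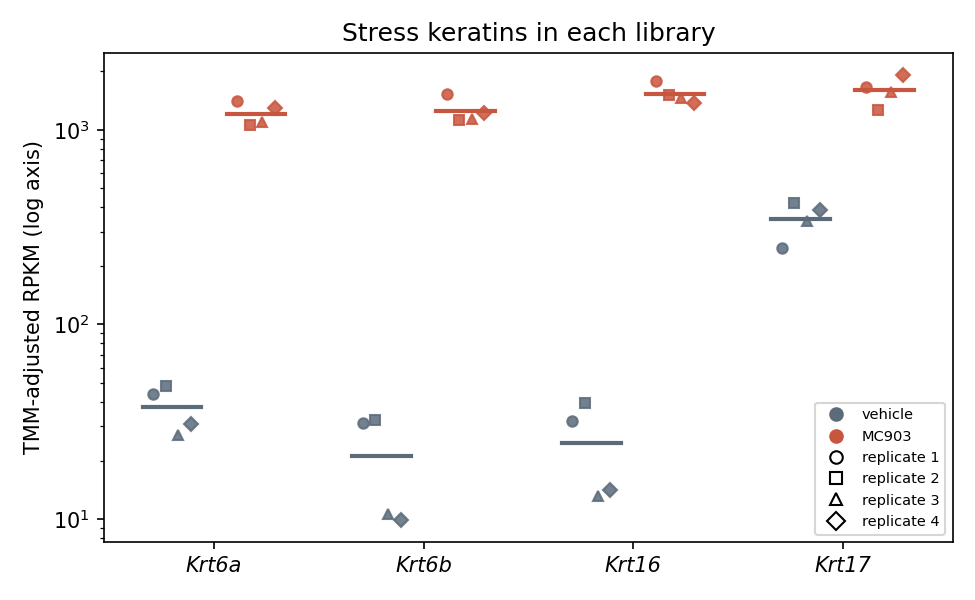
Level of each stress keratin in each library as TMM-adjusted RPKM on a log axis, with 1 symbol shape per replicate number and a bar at the group mean. Vehicle means run from 21.0 RPKM for Krt6b to 349 RPKM for Krt17, and MC903 means lie together between 1211 and 1597 RPKM.

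Levels of the 4 genes can be compared with each other only per length, in RPKM. Their order and their parts of the sum also rest on how reads shared with other genes were counted, which is not given. Windows also in another gene were 49.5% for Krt6a, 50.1% for Krt6b and 37.6% for Krt16, against 3.99% for Krt17. In vehicle ears Krt17 was far above the others, at 349 ± 74.7 RPKM (SD, n = 4), against 37.6 ± 10.2 for Krt6a, 24.7 ± 13.0 for Krt16 and 21.0 ± 12.4 for Krt6b, and Krt16 and Krt6b differed by less than their spread. Krt6a stood above Krt6b by more than the SD of either and was the higher of the pair in all 4 vehicle libraries, and its gap to Krt16 was about as large as their SDs. In MC903 ears the means were 1597 ± 262 RPKM for Krt17, 1530 ± 172 for Krt16, 1250 ± 187 for Krt6b and 1211 ± 163 for Krt6a. Krt17 and Krt16 differed by less than their spread, as did Krt6b and Krt6a, while Krt16 stood above Krt6b by more than the SD of either. Within single libraries the highest of the 4 was 7.97 to 38.9 times the lowest in vehicle ears and 1.27 to 1.57 times the lowest in MC903 ears. Krt17 made up 80.5% ± 8.41 of the summed RPKM of the 4 in vehicle ears and 28.6% ± 3.44 in MC903 ears.

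Type I and type II stress keratins were unequal in vehicle ears and closer to equal in MC903 ears. The summed RPKM of Krt6a and Krt6b was 0.268, 0.176, 0.107 and 0.102 of that of Krt16 and Krt17 in vehicle replicates 1 to 4. In MC903 replicates 1 to 4 this ratio was 0.853, 0.782, 0.741 and 0.765. These values are descriptions. They do not depend on how shared reads were split between Krt6a and Krt6b, which are summed. They do depend on whether reads fitting more than 1 gene were counted at all, for Krt6a, Krt6b and Krt16 above all.

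Ratios taken inside a library are free of library scaling, and 10 of them were tested: the 6 pairs of stress keratins and each stress keratin to Krt14. The log2 count ratio of Krt16 to Krt17 was -2.94, -3.40, -4.67 and -4.76 in vehicle replicates 1 to 4 and 0.12, 0.26, -0.08 and -0.46 in MC903 replicates 1 to 4. The groups did not overlap, and the ratio differed by 3.90 ± 0.48 (SE; two-sided exact permutation test p = 0.0286, adjusted p = 0.0357 over the 10 ratios). This p is the smallest that 4 against 4 libraries can give. Krt6a and Krt6b likewise rose relative to Krt17, by 2.83 ± 0.28 and 3.89 ± 0.55, and Krt6b rose relative to Krt6a by 1.06 ± 0.29, each with the same exact permutation p and adjusted p. For this last pair vehicle replicates 1 and 2 (-0.52 and -0.60) lay nearer to the MC903 libraries than vehicle replicates 3 and 4 did (-1.37 and -1.65).

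Krt16 and Krt6b kept nearly the same ratio throughout. The log2 ratio of Krt16 to Krt6b was -0.47, -0.23, -0.19 and 0.00 in vehicle replicates 1 to 4 and -0.29, -0.08, -0.15 and -0.33 in MC903 replicates 1 to 4. The groups overlapped and their means differed by 0.01 ± 0.11 (exact permutation p = 0.971), while the level of Krt16 differed by 62.0-fold and that of Krt6b by 59.5-fold. The difference was -0.07 to 0.08 when any 1 library was left out. The ratio of Krt16 to Krt6a, by contrast, was higher in MC903 ears by 1.07 ± 0.23 (exact permutation p = 0.0286, adjusted p = 0.0357).

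Set against Krt14, the main type I keratin of basal keratinocytes, Krt6a rose by 3.17 ± 0.19 on the log2 scale, Krt6b by 4.23 ± 0.45 and Krt16 by 4.24 ± 0.38, with no overlap of groups (exact permutation p = 0.0286 and adjusted p = 0.0357 for each). Krt17 did not separate from Krt14 in this way. The log2 ratio of Krt17 to Krt14 was -2.18, -1.80, -1.93 and -1.53 in vehicle replicates 1 to 4 and -1.66, -1.70, -1.40 and -1.33 in MC903 replicates 1 to 4, a difference of 0.34 ± 0.16 that did not pass (exact permutation p = 0.114, adjusted p = 0.127).

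**Figure D2:**
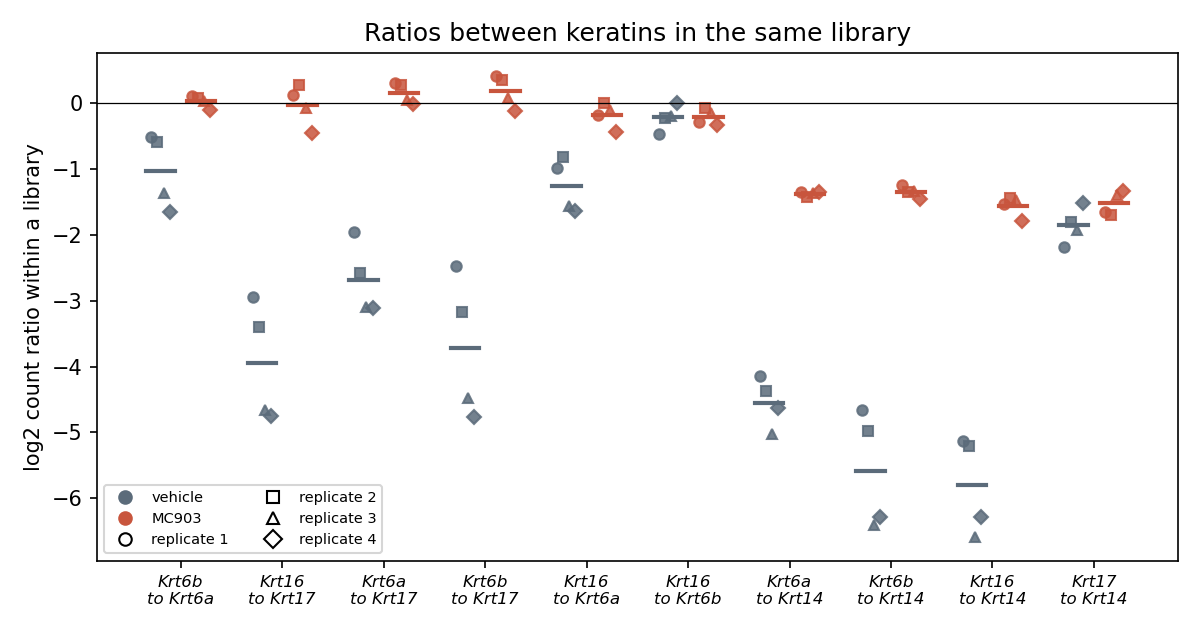
Log2 count ratio of keratin pairs within each library, with 1 symbol shape per replicate number and a bar at the group mean. The ratios of Krt16 to Krt6b and of Krt17 to Krt14 overlap between groups, and the other 8 ratios do not.

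The stress keratins went from a small to a large part of all keratin transcripts. Over 53 keratin genes found in the files, they held 6.42%, 7.42%, 5.65% and 6.24% of the summed keratin RPKM in vehicle replicates 1 to 4 and 46.0%, 38.9%, 40.1% and 39.9% in MC903 replicates 1 to 4. In vehicle ears most of that share was Krt17 (5.16% ± 0.57), with Krt6a at 0.572%, Krt16 at 0.377% and Krt6b at 0.325%. In MC903 ears it was spread over Krt17 (11.7% ± 1.32), Krt16 (11.3% ± 1.43), Krt6b (9.23% ± 1.23) and Krt6a (8.93% ± 0.86). After Krt14, these 4 were then the keratins with the highest mean share, whereas in vehicle ears Krt15, Krt10, Krt14, Krt2 and Krt5 all stood above Krt17. Shares and order also rest on how reads shared between genes were counted, which is not given. Windows also in another gene were 49.5% for Krt6a, 50.1% for Krt6b and 37.6% for Krt16, against 14.4% for Krt14. The share of suprabasal keratins was 39.3% ± 4.05 in vehicle ears and 19.8% ± 5.21 in MC903 ears, and that of basal keratins 50.7% ± 4.70 and 37.4% ± 2.36. A fall in a share does not by itself show a fall in a level, since the shares add up to a whole.

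**Figure D3:**
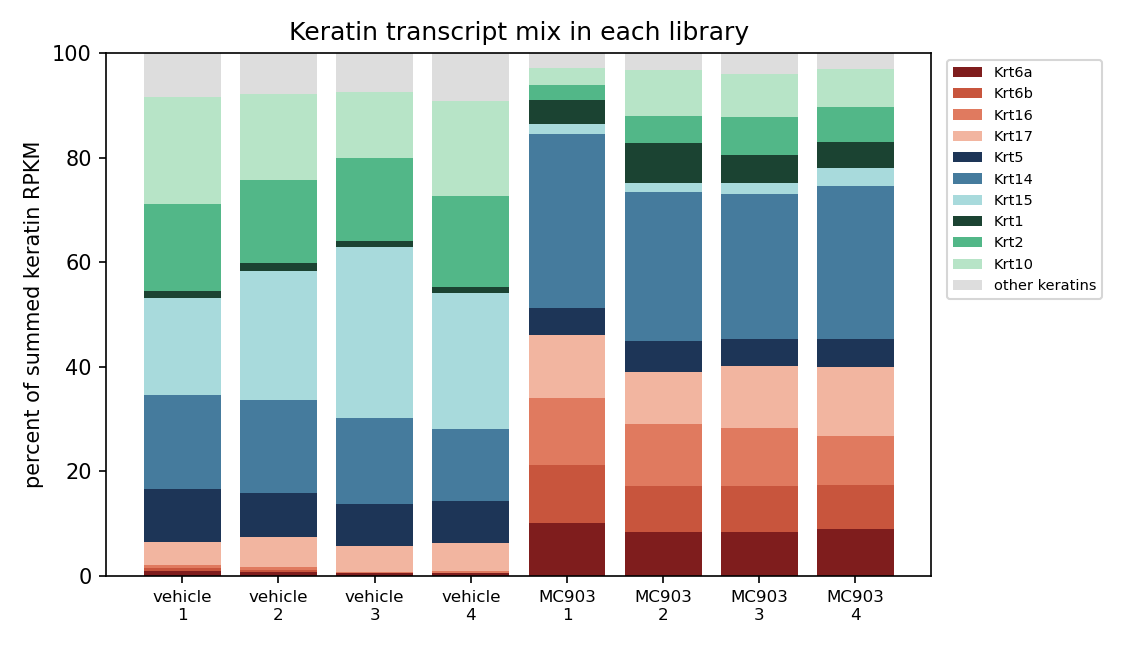
Percent of summed keratin RPKM held by each of 10 keratins, and by all others together, in each library. The 4 stress keratins (red shades, bottom) hold 5.65% to 7.42% in vehicle libraries and 38.9% to 46.0% in MC903 libraries.

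Among the usual partners of the epidermis, Krt14 and Krt5, and Krt1 and Krt10, did not change by like amounts. Krt14 rose from 1939 ± 257 to 7077 ± 828 CPM (log2 fold change 1.87 ± 0.19, edgeR adjusted p = 2.71e-05), while its partner Krt5 stood at 1259 ± 60.9 and 1593 ± 109 CPM and did not pass (0.34 ± 0.16, adjusted p = 0.101, although DESeq2 called it at adjusted p = 0.00230). Krt1, a suprabasal type II keratin, rose from 202 ± 50.0 to 1848 ± 362 CPM (3.19 ± 0.23, edgeR adjusted p = 2.75e-06). Its partner Krt10 was 2355 ± 376 CPM and 1949 ± 660 CPM and did not pass (-0.27 ± 0.27, edgeR adjusted p = 0.448). Krt2, the other main partner of Krt10, was 2885 ± 348 and 1954 ± 717 CPM. Like Krt10, it did not pass (-0.56 ± 0.27, edgeR adjusted p = 0.117). Among the basal keratins, Krt15 fell from 3061 ± 912 to 564 ± 217 CPM while Krt14 rose. Because Krt16 and Krt17 share windows with Krt14, the size of that sharing was set beside the rise of Krt14, which was 5138 CPM. If reads fell evenly along the transcripts, Krt16 and Krt17 reads from windows identical in Krt14 would amount to 388 CPM in MC903 ears, and those from windows within 2 mismatches of Krt14 to 1210 CPM. These figures start from the counted levels of Krt16 and Krt17, which would lack shared reads if such reads were not counted. They are therefore rough.

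Of the 33 keratins tested outside the stress keratins, 7 were higher and 17 lower in MC903 ears, with a median log2 fold change of -1.66, against 21.3% of all genes tested higher and 20.2% lower. Leaving out 1 library gave 5 to 8 higher and 16 to 19 lower. Krt75, a type II keratin of the companion layer of the hair follicle, rose from 14.1 ± 4.76 to 124 ± 32.4 CPM (3.14 ± 0.26, adjusted p = 6.60e-06). It stood alone in its class, since the 5 inner root sheath keratins tested (Krt25, Krt27, Krt28, Krt71 and Krt73) were all lower, 3 of them when vehicle replicate 4 or MC903 replicate 4 was left out. Vehicle replicate 4 held the most hair shaft keratin of its group, 82.5 CPM in sum against 19.4 to 31.4 CPM.

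The highest rises among other keratins were Krt36 (6.88 ± 0.43) and Krt84 (5.56 ± 0.40), listed here with the hair shaft keratins, and Krt1 was the third. Krt36 was at most 0.999 CPM in the vehicle libraries and 81.0, 63.0, 178 and 62.1 CPM in MC903 replicates 1 to 4. Krt84 was at 1.46 to 2.36 CPM in the vehicle libraries and at 71.5, 59.0, 185 and 76.9 CPM in MC903 replicates 1 to 4, and both were highest in MC903 replicate 3. Of the other 6 hair shaft keratins tested, 5 were lower and 1, Krt34, was not called, against 20.2% of all genes tested lower. Some lay near the floor: the MC903 libraries held 0 to 8 counts of Krt31 and 0 to 5 counts of Krt81. Among keratins with a mean log2 CPM of at least 1, the deepest falls were in Krt33a (-3.58 ± 0.74), Krt31 (-3.55 ± 0.92) and Krt32 (-3.07 ± 0.35), and Krt81, below that level, fell by 3.28 (SE 0.83). Without vehicle replicate 4 the values for Krt33a, Krt31 and Krt81 were -2.57, -2.48 and -2.06, still called.

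**Figure D4:**
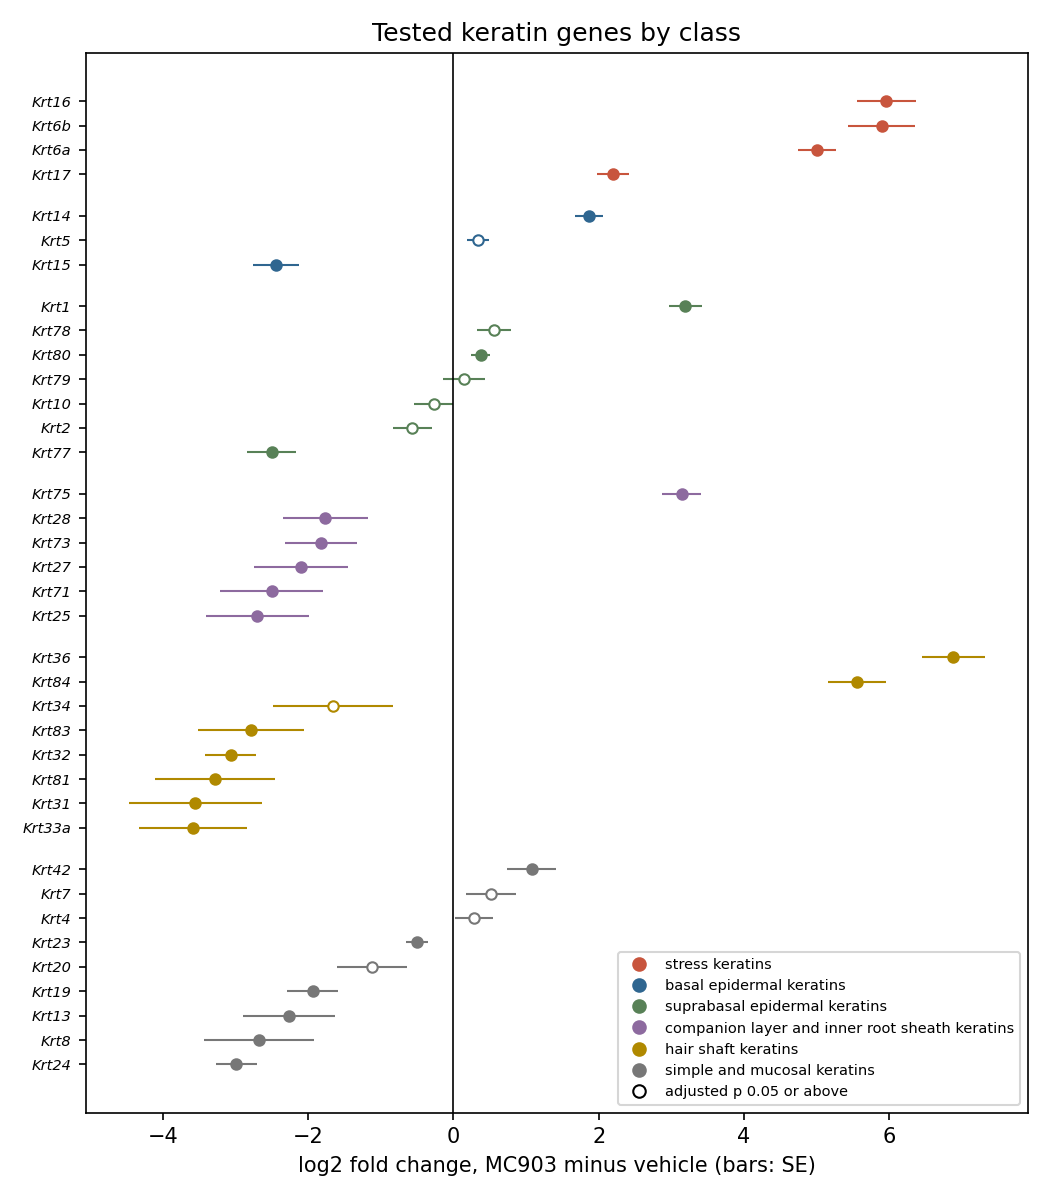
Log2 fold change of every keratin tested, MC903 minus vehicle, grouped by class, with bars for the SE and open symbols where the edgeR adjusted p was 0.05 or above. The stress keratins, Krt14, Krt1, Krt75, Krt36 and Krt84 lie to the right, and most hair and inner root sheath keratins to the left.

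Of 9 general keratinocyte markers (Trp63 and Perp among them), 2 were higher and 2 lower, shares near the 21.3% and 20.2% of all genes tested, or 1 and 1 with any of 4 libraries left out (replicates 1 and 4 of vehicle, 2 and 4 of MC903). Only 1 was higher when replicate 2 of vehicle or replicate 3 of MC903 was left out. Their summed level was 4964 to 6402 CPM in vehicle and 5807 to 7342 CPM in MC903 libraries, so the groups overlapped. Hair follicle markers other than keratins summed to 485 to 608 CPM in vehicle and 644 to 1244 CPM in MC903 libraries, with 2 of 8 tested higher and 4 lower. Tchh, trichohyalin, carried that rise: without it, a split made after its values were seen, the sums were 459 to 549 CPM in vehicle and 287 to 403 CPM in MC903 libraries, lower and with no overlap. Most of the sum without Tchh came from Sox9 (mean 267 CPM in vehicle, 162 CPM in MC903) and Cd34 (207 and 142 CPM). It is therefore mainly a reading of these 2 genes and not of the whole list. The 12 proliferation genes were all higher, with a summed level of 219 to 291 CPM in vehicle and 599 to 706 CPM in MC903 libraries, and the smallest p-values were those of the mitotic kinases Plk1 (2.29 ± 0.18) and Cdk1 (1.92 ± 0.16) and the replication factor Mcm5 (1.46 ± 0.14). Leukocyte markers summed to 538 to 658 CPM and 932 to 1455 CPM, fibroblast markers to 10323 to 15028 CPM and 7268 to 10597 CPM, and skeletal muscle markers to 3001 to 9186 CPM and 1647 to 5445 CPM. Single genes weighed heavily in such sums: Lyz2 (mean 422 and 860 CPM) for leukocytes and Perp (3738 and 4934 CPM) for keratinocytes. Of the 5 leukocyte markers 4 were higher, against 21.3% of all genes tested, and Cd3e (21.4 and 17.3 CPM) was not called. The part of these lists in the stress keratin result was not tested.

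Of 10 tested genes for proteins that anchor or bind keratin filaments, 4 were higher and 2 lower, with a median log2 fold change of 0.36, against 21.3% and 20.2% of all genes tested. The lower count was near that background, as was the higher count with library sizes alone, which was 2. Sfn (14-3-3 sigma), a known binding partner of keratin 17, rose from 260 ± 26.8 to 830 ± 100 CPM (1.67 ± 0.16, adjusted p = 1.80e-05). The desmosomal plaque genes Pkp3 and Pkp1 rose by 0.90 ± 0.12 and 0.67 ± 0.15, the latter not called with library sizes alone (adjusted p = 0.0753). Dst, which encodes the hemidesmosomal keratin linker BPAG1, fell by 1.12 on the log2 scale (SE 0.15), and Ppl, periplakin of the cornified envelope, fell by 0.72 (SE 0.13). Desmoplakin, Dsp, the main keratin anchor of desmosomes, was 1520 ± 96.4 and 1562 ± 234 CPM and did not pass (adjusted p = 0.873).

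Ligands known to induce stress keratins were mostly higher, in 8 of 11 tested, against 21.3% of all genes tested, with a median log2 fold change of 2.81. Only Btc was lower, or 2 genes with upper quartile factors, with no filter or without vehicle replicate 2, against 20.2% of all genes tested. Among the epidermal growth factor receptor ligands, Hbegf rose from 10.9 ± 1.96 to 64.3 ± 7.76 CPM (2.55 ± 0.15, adjusted p = 8.01e-07), Areg by 4.42 ± 0.30 and Epgn by 3.60 ± 0.33. Btc, betacellulin, a ligand of the same receptor, fell from 43.8 ± 9.30 to 8.32 ± 1.07 CPM (-2.40 ± 0.18, adjusted p = 2.85e-06), and Tgfa was at 18.4 ± 2.35 and 18.5 ± 3.32 CPM (adjusted p = 0.979). The alarmin cytokine Il1a rose from 13.7 ± 2.12 to 55.1 ± 4.94 CPM. Ifng, whose product is known to induce Krt17, drew 0 counts in each vehicle library and 8, 13, 25 and 19 counts in MC903 replicates 1 to 4. It did not pass the low-count filter, and with no filter it was called higher (edgeR adjusted p = 1.06e-05), as it was in the 5 fits with a library left out in which it passed the filter (adjusted p 2.73e-04 to 0.00127). Il17a had 4 counts in the vehicle group and 7 in the MC903 group and Il22 had 0 and 1, so differences in these cytokines, known inducers of stress keratins in psoriasis, were not detectable at this depth.

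Of 10 receptor genes for these ligands, 5 were higher and none lower, against 21.3% and 20.2% of all genes tested. With library sizes alone 3 were higher, a share near that background. Ifngr2 rose by 1.56 ± 0.14, Osmr by 0.88 ± 0.14 and Il17ra by 0.77 ± 0.14. Egfr itself went from 99.6 ± 4.13 to 89.1 ± 14.8 CPM, a difference that did not pass (-0.16 ± 0.13, adjusted p = 0.354).

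Transcription factors known to act at stress keratin genes, or downstream of their inducers, were higher in 7 of 16 cases and lower in 3, with a median log2 fold change of 0.21, against 21.3% of all genes tested higher and 20.2% lower. The count of lower genes was near that background. Junb rose by 2.30 ± 0.22 on the log2 scale (edgeR adjusted p = 1.45e-05). Fosl1, a partner of Jun proteins in AP-1, rose by 1.90 ± 0.26 from a low level (1.14 ± 0.23 to 4.29 ± 1.12 CPM). The AP-1 genes Jun (0.05 ± 0.18), Jund (0.30 ± 0.19) and Fos (-1.14 ± 0.67) were not called. The negative Fos value rests on vehicle replicate 1, at 230 CPM. The other vehicle libraries stood at 18.9 to 34.2 CPM and the MC903 libraries at 25.0 to 38.9 CPM. Nfe2l2, which encodes NRF2, rose from 105 ± 10.2 to 171 ± 8.70 CPM (0.70 ± 0.12, adjusted p = 7.68e-04), and Stat3 by 0.79 ± 0.12. Gli2, of the hedgehog pathway, fell by 0.98 (SE 0.18). Fosb was lower by 2.78 on the log2 scale (SE 0.57), with vehicle replicate 1 at 49.3 CPM and the other vehicle libraries at 8.17 to 12.3 CPM. Without that library its log2 fold change was -1.83. Transcript levels do not measure the activity of these factors.

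**Figure D5:**
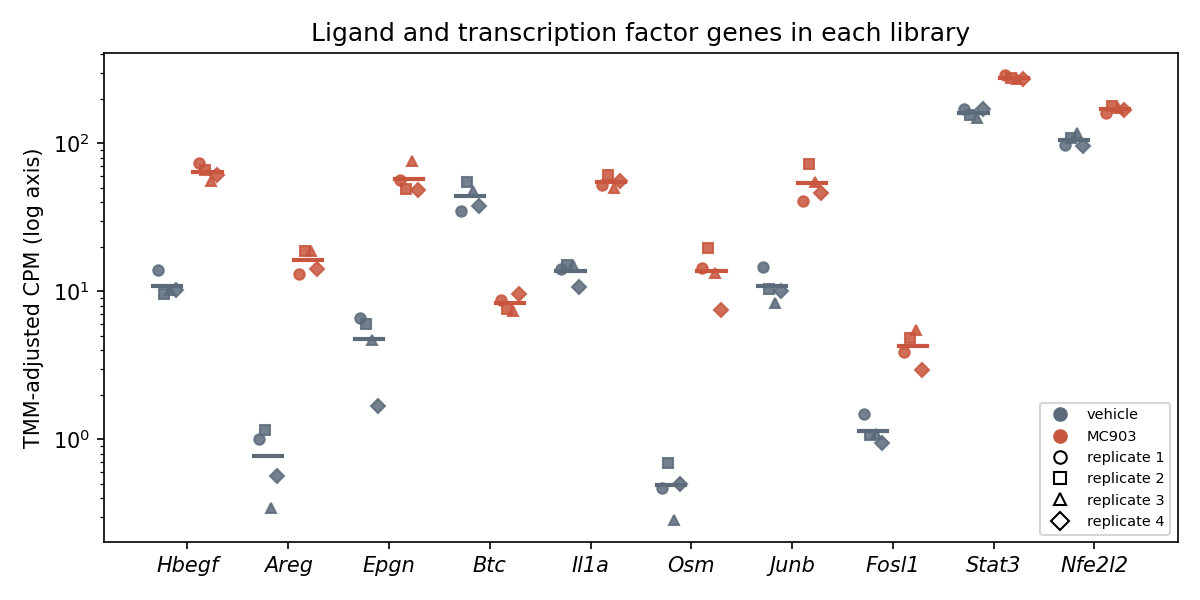
Level of 6 ligand genes and 4 transcription factor genes in each library as TMM-adjusted CPM on a log axis, with 1 symbol shape per replicate number and a bar at the group mean. Btc is lower in every MC903 library, and the other 9 genes are higher in every MC903 library than in any vehicle library. Groups did not overlap for 19.8% of all genes tested, higher in MC903, and for 18.9%, lower. The genes shown were picked from the lists and all were called. Among listed genes not shown, some were higher, some lower and some overlapped between groups.

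The genes whose profile over the 8 libraries lay closest to the mean profile of the 4 stress keratins were Rbp2, a retinol-binding protein (root-mean-square log2 difference 0.26), Klk6, a kallikrein protease (0.27), Reg3g, an antimicrobial lectin (0.27), Teddm3 (0.28) and Lce3c, a late cornified envelope gene (0.31). They were the closest of 13943 genes ranked, a likeness set mostly by the difference between groups. The members themselves lay at 0.13 (Krt6a), 0.65 (Krt16), 0.68 (Krt6b) and 1.38 (Krt17) from that mean, so Krt6a was nearest to it and Krt17 farthest. Rbp2 was at 15.2 ± 3.45 and 580 ± 159 CPM, and Klk6 at 39.1 ± 7.23 and 1172 ± 247 CPM, in vehicle and MC903 ears. By Pearson correlation with the same mean profile, the closest 5 were C3ar1, Lce3f, Teddm3, Rbp2 and Msr1, and so 2 of the 5 names were shared.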

How the data were processed

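The authors deposited 1 table per library with read counts per Ensembl gene, and CPM and RPKM beside them. STAR 2.0.4b, featureCounts 1.4.5 and Subread are named with mm10, per the submitters' processing notes. The annotation release, the strand setting and how reads with several matches were handled are not given in the sources used here. CPM and RPKM as deposited equalled those recomputed from the counts to within 2.33e-10, and every result rests on the counts. Library totals were 12310466 to 16837221, and libraries within a group differed beyond sampling noise (chi-square per degree of freedom at least 11.0). Each group is 4 mice per the labels, so p-values measure the spread between mice.

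Symbols were matched by gene ID for 40254 identifiers. Krt85 and Eppk1 of the gene lists were not matched. Genes were filtered with filterByExpr, scaled by TMM, and group was the only term in the quasi-likelihood test of edgeR 4.0.16 (R 4.3.3), with Benjamini-Hochberg adjustment over 16105 genes and a threshold of 0.05. The SE is the log2 fold change divided by the square root of F. RPKM values in the text are TMM-adjusted CPM per kilobase. Ratios used a pseudocount of 0.5 counts and exact permutation tests with scipy 1.17.1. Windows of 50 bases were compared between GENCODE M21 transcripts of genes present in the tables. The planned promoter motif search was not run. Simulated data for this comparison (15716 genes) had 200 genes changed, far fewer than the 41.5% called in the real data. There the test recovered 36 of 48 genes set to differ 2-fold and 50 of 50 set to differ 8-fold, and 4.67% of its calls were unchanged genes. These rates need not hold where so many genes differ.

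The stress keratins, the 17 gene lists and the tests were chosen with earlier results of these data known. Named genes are the 4 stress keratins, Cyp24a1, Krt5, Krt14, Krt1, Krt10, Krt75, the 3 largest rises and falls among other called keratins with a mean log2 CPM no lower than 1, up to 3 rises and 2 falls with the smallest p in each list of partners, ligands, receptors, factors and proliferation, 5 preset regulators (Nfe2l2, Stat3, Ifng, Il17a, Il22; another is not reported here), and the 5 nearest profiles. Other genes were named after their values were seen. Alternatives were other normalizations and filters, DESeq2 1.42.0, limma-voom (limma 3.58.1), the replicate number as a block and leaving out each library.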

Additional observations from a re-analysis of the deposited data

Results flagged for a closer look

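In 15 of 126 groups of 4 libraries checked, 1 library lay far from the other three, where chance flags about 1 in 20 groups. None of these was a level of a stress keratin. The log2 ratio of Krt6a to Krt14 was -1.43 in MC903 replicate 2 and -1.36 to -1.35 in the other MC903 libraries.

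Vehicle replicate 2 stood apart for the summed salivary markers (381489 CPM), and also for Krt1 (277 CPM, others 173 to 180), Klk6 (49.9 CPM, others 34.8 to 36.0) and Ppl (223 CPM, others 267 to 274). Vehicle replicate 1 stood apart for Hbegf (13.8 CPM, others 9.53 to 10.2) and Fosb (49.3 CPM, others 8.17 to 12.3).

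MC903 replicate 1 had the lowest Krt10 of its group (967 CPM, others 2175 to 2371), the lowest summed hair follicle markers (644 CPM, others 1171 to 1244) and the highest Rbp2 (818 CPM, others 491 to 511). It also had the highest Krt6a, Krt6b and Krt16 of its group, without standing far from the other libraries for these. MC903 replicate 3 stood apart for both Krt36 (178 CPM, others 62.1 to 81.0) and Krt84 (185 CPM, others 59.0 to 76.9), and held the single Il22 count (0.0663 CPM). Summed fibroblast markers were highest in vehicle replicate 4 (15028 CPM, others 10323 to 10702) and in MC903 replicate 4 (10597 CPM, others 7268 to 7735).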

How the results depend on the processing

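All 4 stress keratins, and Krt6a with Krt6b as 1 gene, stayed called and higher under all 16 alternatives run, and the 10 within-library ratios moved by less than the spread between libraries. Counts of keratins called were less steady. The reported fit tested 3 basal, 7 suprabasal, 6 companion layer and inner root sheath, 8 hair shaft and 9 simple and mucosal keratins. Of all genes tested 21.3% were higher and 20.2% lower, and 2 of 7 suprabasal keratins higher is a share near that background. Suprabasal keratins higher numbered 1, not 2, with upper quartile factors, library sizes alone, no filter or the replicate block, and 1 to 2 with a library left out. Over all 16 alternatives that number ran from 1 to 3. DESeq2 called 2 basal keratins higher, not 1. Companion layer and inner root sheath keratins lower numbered 3, not 5, with limma-voom and the replicate block, and 3 to 5 with a library left out. Hair shaft keratins lower numbered 9 with no filter and 2 with the stricter filter, which tested other numbers of genes, against 5. Simple and mucosal keratins higher numbered 2 and 0 under those 2 filters, against 1, and 0 to 2 with a library left out, and 8 rather than 5 were lower with no filter. For the rest the cause was not tested. By raw counts rather than RPKM the stress keratins held 5.22% of keratin transcripts in vehicle ears, not 6.43%.

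Replicate numbers are shared by the groups, but nothing in the labels ties the mice. Same-numbered libraries deviated with correlations of 0.06, -0.14, -0.12 and -0.20, and 0 of 4 matched their own number best. With the replicate block the log2 fold changes were 5.04 for Krt6a, 6.10 for Krt6b, 6.11 for Krt16 and 2.21 for Krt17. Leaving out a library leaves 3 against 4, too few for the exact permutation test to pass. Library sizes alone moved the median of all genes by -0.08 on the log2 scale.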

Other observations

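Beside Krt36 and Krt84, 2 genes of the hair follicle marker list were higher in MC903 ears, and they were named after their values were seen. Tchh, which encodes the keratin-binding protein trichohyalin, was at 15.6, 26.4, 15.3 and 74.3 CPM in vehicle replicates 1 to 4 and at 357, 822, 872 and 797 CPM in MC903 replicates 1 to 4 (log2 fold change 4.44 ± 0.54, edgeR adjusted p = 8.88e-05). Hoxc13, a transcription factor of hair and nail keratin genes, rose from 6.46 ± 2.24 to 28.1 ± 11.5 CPM (2.11 ± 0.30, edgeR adjusted p = 2.61e-04). Over the same libraries Krt15, a keratin of basal cells and of the hair follicle bulge, fell from 3061 ± 912 to 564 ± 217 CPM (-2.44 ± 0.31, edgeR adjusted p = 1.14e-04), the opposite direction to Krt14.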
